A study of Mus musculus with 10 samples.

Results

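The 8 genes described here are the connexins of glia and neurons and one pannexin, namely Gja1, Gjb6, Gjb2, Gjc3, Gjb1, Gjd2, Gjc1 and Panx1. They were chosen by symbol among the 55471 Ensembl gene identifiers of the deposited table, and all 8 were found once. RNA-seq libraries had been made from the brains of 10 wild-type Swiss Webster pups, 1 library per pup, at neonatal day 5 according to the series' design text. Both groups had undergone hypoxia-ischemia, an injury in which the brain loses blood flow and oxygen, so no uninjured level enters any comparison. Libraries 1 to 5, called untreated, came from 5 pups labelled as having had no treatment, and 5 pups (libraries 6 to 10, called treated) received allopregnanolone, a progesterone metabolite that modulates GABA-A receptors. The labels used here state no dose, route or interval between injury and collection. The question was how the treated brains differ from the untreated ones in the transcripts of gap junction channels of astrocytes, oligodendrocytes and neurons.

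Connexins are membrane proteins that assemble into hemichannels, and hemichannels of neighbouring cells dock into gap junctions through which ions, metabolites and second messengers pass. Astrocytes are coupled mainly through Cx43 (Gja1) and Cx30 (Gjb6), with Cx26 (Gjb2) also found in the leptomeninges. Astrocytes and oligodendrocytes are joined into a panglial network that carries potassium and glucose. The connexins made by oligodendrocytes include Cx32 (Gjb1) and Cx29 (Gjc3). Neurons form electrical synapses with Cx36 (Gjd2), which are most abundant in the developing brain, and Cx45 (Gjc1) is made in neurons early in life and in vascular mural cells. Panx1 forms ATP-releasing channels of a separate protein family that does not build classical gap junctions.

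The libraries held 18656836 to 34270723 estimated counts, treated library 6 being the deepest. Every member passed the filter on low counts, which asked for 10 or more counts in at least 5 libraries, and the lowest count of a member in any library was 51. Levels are given as CPM, counts scaled to the size of the library with TMM factors, and changes as log2 fold changes of treated against untreated libraries with their standard error (SE) from edgeR's quasi-likelihood test, adjusted over 17101 genes. Marker transcripts of astrocytes, oligodendrocytes and neurons were present in every library, as the whole-brain label implies. Levels of Xist and of Y-linked genes marked 1 untreated and 1 treated library as female. In bulk tissue, fewer cells of a type and less RNA per cell cannot be told apart.

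Of the astrocyte connexins Gjb6 rose, of the oligodendrocyte connexins both Gjc3 and Gjb1 rose, and Panx1 fell, at an adjusted p under 0.05 in edgeR's test. Gja1 and Gjb2 of astrocytes and Gjd2 and Gjc1 of neurons did not pass. That is 4 of 8 members, against 11.3% of all genes tested, 6.61% being higher and 4.65% lower. The median log2 fold change was 0.14 over the members and -0.0046 over all genes tested. Treated and untreated libraries did not overlap for Gjb6, Gjc3 and Panx1, which was so for 9.64% of all genes tested, 5.44% with every treated library higher and 4.2% with every one lower. DESeq2 called the same 4 members and Gja1, and limma-trend called the same 4. The names of untreated libraries 1 to 3 carry another prefix than those of the other 7 libraries, and what the prefix stands for is not stated. Against untreated libraries 4 and 5 alone, which share their prefix with the treated group, only Gjb6 passed. Over all genes 80 were then higher and 25 lower, against 1131 and 795 with all libraries. Values for that contrast stand beside each of the 4 members and Panx2. They are not given for the marker lists, whose calls rest on all 10 libraries.

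**Figure D1:**
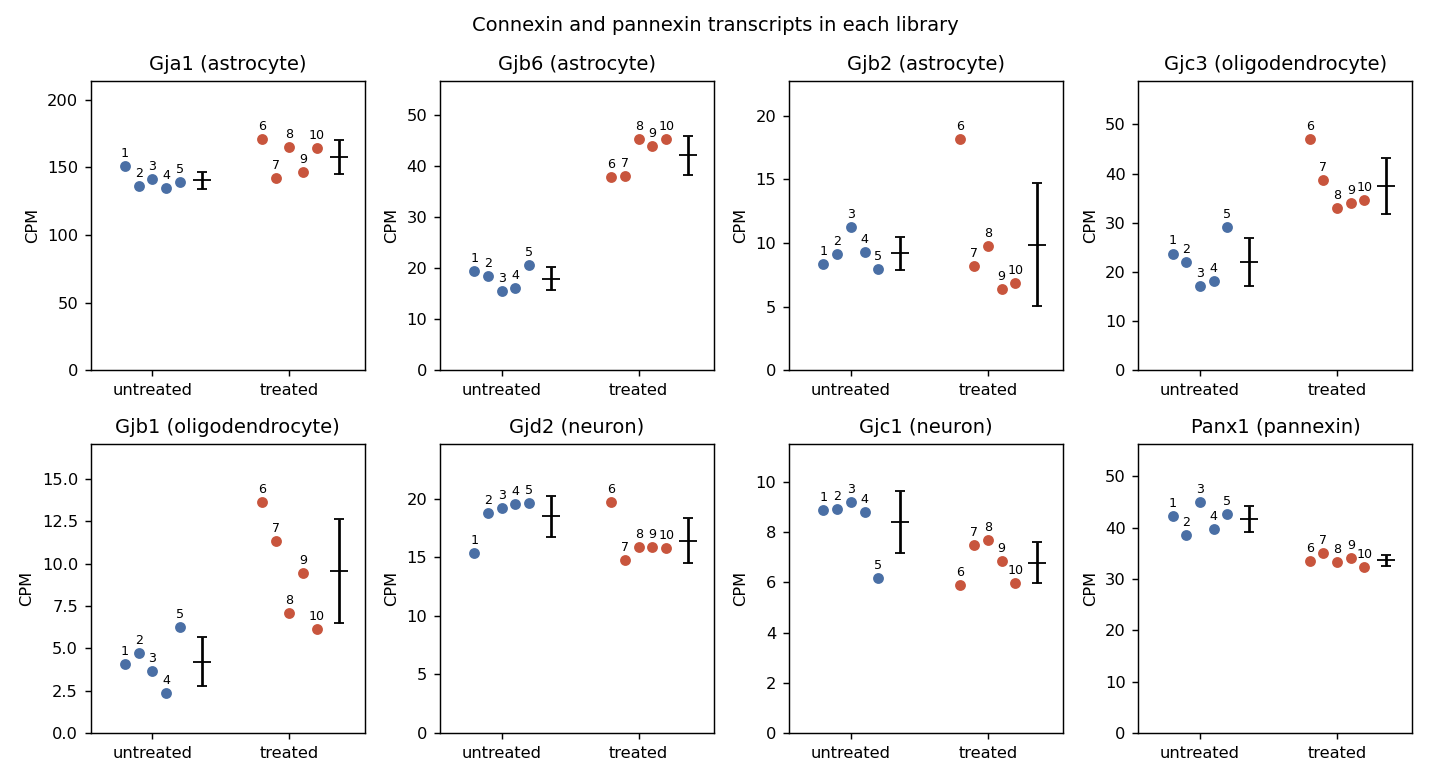
CPM of each of the 8 members in each library (points, numbered by library, untreated in blue and treated in red) with the group mean and SD as black bars. All 5 treated libraries lie above every untreated one for Gjb6 and Gjc3 and below every untreated one for Panx1, and treated library 6 stands apart for Gjb2 and Gjd2.

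Among the astrocyte connexins Gjb6 rose while its usual partner Gja1 moved little. Gjb6 (ENSMUSG00000040055) lies on the minus strand of chromosome 14 at 57123303 to 57133611 (GRCm38). It measured 19.4, 18.4, 15.5, 16.0 and 20.6 CPM in untreated libraries 1 to 5 and 37.9, 38.1, 45.4, 44.0 and 45.3 CPM in treated libraries 6 to 10. The gap between the groups was wider than the spread within either of them. Gjb6 thus rose 2.34-fold, by 1.23 on the log2 scale (SE 0.09) with an adjusted p = 2.86e-05 in edgeR. Against the untreated libraries of the shared prefix the log2 fold change was 1.20 with an adjusted p = 0.00864. It was 1.27 (adjusted p = 0.0216, edgeR) with the mean of the astrocyte markers as a covariate and 0.91 (adjusted p = 0.408, edgeR) with that of the myelin markers.

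Gja1 (ENSMUSG00000050953, chromosome 10, 56377330 to 56402513) encodes Cx43, the connexin with the highest mean level per kilobase over the 10 libraries. It stood at 151, 136, 141, 135 and 139 CPM untreated and at 171, 142, 165, 146 and 164 CPM treated. Treated libraries 7 and 9 lay within the untreated range and the other 3 above it. The log2 fold change of 0.17 (SE 0.06) missed the threshold in edgeR (adjusted p = 0.0797) and passed it in DESeq2 (adjusted p = 0.0469). Against Aldh1l1, an enzyme gene that marks astrocytes, the log2 ratio of Gja1 differed by 0.07 between the groups (95% interval -0.06 to 0.20, exact permutation p = 0.238, adjusted p = 0.333).

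The proportion of both partners changed. Within an untreated library the Gjb6 to Gja1 ratio of CPM lay between 0.110 and 0.148, and within a treated library between 0.222 and 0.301, with no overlap. The difference of the log2 ratio was 1.06 (95% interval 0.81 to 1.32, exact permutation p = 0.00794, the smallest this design allows, adjusted p = 0.0278 over 14 gene pairs). Against Aldh1l1 the Gjb6 ratio differed by 1.14 (95% interval 0.87 to 1.42, adjusted p = 0.0278, exact permutation test) and was higher in 5 of 5 treated libraries. The log2 fold change of Aldh1l1 was 0.09, below the median of 0.37 over 15 astrocyte markers. Per kilobase of exon, Gja1 held 56.5 ± 1.11% of the summed level of the 3 astrocyte connexins in untreated and 43.6 ± 0.736% in treated libraries (SD, n = 5 each). The Gjb6 share went from 27.7 ± 2.83% to 44.9 ± 4.72%. The annotated exons of Gja1 add up to 10257 bases, against 2674 for Gjb6, and long untranslated exons lower the Gja1 value. These shares therefore do not show which transcript is more abundant.

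Astrocyte markers mostly shared the direction of Gjb6, with 12 of 15 log2 fold changes above 0 and 3 below. Of 15 astrocyte markers 9 rose and none fell, against 6.61% of all genes tested that rose and 4.65% that fell. The markers had a median log2 fold change of 0.37, and their sum was 4762 to 5409 CPM untreated and 6055 to 6430 CPM treated. The glutamine synthetase gene Glul rose 1.53-fold and the glutamate transporter gene Slc1a2 1.32-fold, each with no overlap between groups. In 3 markers the log2 fold change was below 0, none past the threshold. The intermediate filament gene Gfap had the largest change of the list in size, -0.86 (SE 0.30, adjusted p = 0.0771, edgeR), the water channel gene Aqp4 -0.33 and Sox9 -0.0049, and these 3 were named after their values were seen. Gfap varied widely, at 385 ± 200 CPM in untreated and 213 ± 43.7 CPM in treated brains (SD, n = 5 each). Aldh1l1 itself averaged 40.7 ± 2.03 CPM in untreated and 43.3 ± 1.75 CPM in treated brains (SD, n = 5 each) and did not pass (adjusted p = 0.274, edgeR). The part of astrocyte number or maturity in the rise of Gjb6 was not tested. The covariate, the mean of the markers' log2 CPM, cannot cleanly separate it from treatment, because 9 of its 15 markers rose. The summed CPM did not overlap between the groups, and whether the mean did is not given here. With the covariate the SE of Gjb6 was 0.20, against 0.09 without it. The Aldh1l1 ratio rests on that marker alone.

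Gjb2 (ENSMUSG00000046352), which encodes Cx26, is the chromosomal neighbour of Gjb6 at 57098600 to 57104702, 18.6 kb away on the same strand with the gene model Gm4491 between them. Gjb2 did not pass the test. It measured 8.36, 9.14, 11.2, 9.29 and 7.92 CPM in the untreated libraries and 18.2, 8.22, 9.73, 6.41 and 6.85 CPM in treated libraries 6 to 10. Library 6 alone lay above the untreated range and libraries 9 and 10 below it. On the log2 scale Gjb2 differed by 0.12 (SE 0.24, adjusted p = 0.790 in edgeR), and without treated library 6 by -0.24 (adjusted p = 0.309).

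Library 6 also had the highest leptomeningeal signal, a tissue in which Gjb2 is known to be expressed. The 9 leptomeninges markers summed to 1295 CPM there, against 458 to 553 CPM in the untreated and 491 to 668 CPM in the other treated libraries, and all 9 were detected. None of the 9 passed in edgeR, DESeq2 or limma-trend, and 2 were higher at an unadjusted p under 0.05 in edgeR. With their mean as a covariate Gjb2 gave -0.18 (adjusted p = 0.387, edgeR). The Gjb6 to Gjb2 ratio differed by 1.23 on the log2 scale (95% interval 0.34 to 1.93, adjusted p = 0.0667, exact permutation test). Without treated library 6 this difference was 1.51 with an adjusted p = 0.0222 (exact permutation test). In the other 11 of 12 alternatives the ratio did not pass.

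The 250 bases upstream of the RefSeq starts of both neighbours (GRCm38.p6, minus strand) are shown because the pair shares a locus and only Gjb6 passed the test. Their difference in change did not pass, as given above. Capitals mark matches on either strand to GGGCGG (the GC box), TATAAA (the TATA box), ACAAAG (a core bound by SOX factors) and TGTTCT (an arm of the glucocorticoid response element), which do not overlap one another in these windows. The Gjb6 window is chr14:57133612-57133861 and the Gjb2 window chr14:57104703-57104952.
Gjb6: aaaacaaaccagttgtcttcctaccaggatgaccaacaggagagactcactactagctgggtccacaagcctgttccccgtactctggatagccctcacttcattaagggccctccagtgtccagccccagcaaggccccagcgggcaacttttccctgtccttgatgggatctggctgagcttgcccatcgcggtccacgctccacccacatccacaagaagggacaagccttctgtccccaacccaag
Gjb2: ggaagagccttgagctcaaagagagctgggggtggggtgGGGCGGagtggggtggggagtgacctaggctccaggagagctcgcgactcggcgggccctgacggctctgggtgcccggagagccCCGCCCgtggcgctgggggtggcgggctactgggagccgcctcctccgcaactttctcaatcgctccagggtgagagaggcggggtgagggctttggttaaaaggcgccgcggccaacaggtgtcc
The Gjb6 window held none of the 4 motifs, and the Gjb2 window held 2 GC boxes at a GC content of 69.2%, against 56.8% for Gjb6. Over 32851 RefSeq promoter windows of this length, 32.7% held the GC box, 12.4% the TATA box, 16.5% the SOX core and 16.1% TGTTCT. RefSeq windows were found for 7 of the 8 members, all but Gjc1.

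Oligodendrocyte connexins rose together. Gjc3 (ENSMUSG00000056966, chromosome 5, 137953461 to 137963098) encodes Cx29, which sits mainly on the inner myelin membrane. It stood at 23.7, 22.0, 17.1, 18.1 and 29.1 CPM in the untreated libraries and at 47.1, 38.6, 33.1, 34.1 and 34.6 CPM in the treated ones. Untreated library 5 came nearest to the treated group without reaching it. Gjc3 rose 1.71-fold (log2 0.77, SE 0.14, adjusted p = 0.00442, edgeR). Against the untreated libraries of the shared prefix it gave 0.67 (adjusted p = 0.124, edgeR), and with the astrocyte covariate 0.47 (adjusted p = 0.649, edgeR).

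Gjb1 (ENSMUSG00000047797, chromosome X, 101376378 to 101385629) encodes Cx32 of the myelin sheath, whose human counterpart is mutated in X-linked Charcot-Marie-Tooth neuropathy. It measured 4.06, 4.74, 3.68, 2.36 and 6.23 CPM untreated and 13.7, 11.3, 7.10, 9.46 and 6.14 CPM treated. Treated library 10 lay just under untreated library 5, and the other 4 treated libraries were above every untreated one. The rise was 2.27-fold (log2 1.18, SE 0.25, adjusted p = 0.00988, edgeR). With the level of the Y-linked gene Ddx3y as a covariate the adjusted p was 0.0177 (edgeR). Within the shared prefix the log2 fold change was 1.15 (adjusted p = 0.185, edgeR), and with the astrocyte covariate 0.71 (adjusted p = 0.721, edgeR).

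RefSeq gives Gjb1 several starts, and the window before the last of them is shown because it is the only member window that matched all 4 motifs (chrX:101383482-101383731, plus strand, GRCm38.p6, capitals as above).
Gjb1: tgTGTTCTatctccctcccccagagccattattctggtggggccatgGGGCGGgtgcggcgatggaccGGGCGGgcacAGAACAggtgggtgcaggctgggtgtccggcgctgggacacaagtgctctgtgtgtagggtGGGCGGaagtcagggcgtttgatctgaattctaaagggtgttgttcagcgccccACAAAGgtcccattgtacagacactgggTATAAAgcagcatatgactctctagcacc
This window held 3 GC boxes, 1 TATA box, 1 SOX core and 2 matches to TGTTCT. The window before the first Gjb1 start held 1 SOX core and 2 matches to TGTTCT, and those before the middle starts held none. The window of Gjc3, which also rose, held none either. The share of all RefSeq windows that match all 4 motifs was not computed. Such matches describe the letters and show no binding.

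Myelin genes rose with these connexins. All 12 oligodendrocyte and myelin markers rose with no overlap between groups. Over all genes tested 6.61% rose, and 5.44% had every treated library higher. The markers had a median log2 fold change of 1.21, and their sum was 2137 to 4077 CPM untreated and 6254 to 8423 CPM treated. Mobp, a gene of compact myelin, rose 2.43-fold. The Gjc3 to Gjb1 ratio differed by -0.40 (95% interval -0.91 to 0.14, exact permutation p = 0.0714, adjusted p = 0.111).

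Among the treated libraries, 6, 7 and 9 had the 3 highest values both of Gjb1 and of the myelin sum, and libraries 8 and 10 the lowest of both, though in opposite order. Libraries 6, 7 and 9 also had the highest sums of 6 midbrain dopamine markers, a list made after these values were seen, at 80.4, 65.5 and 46.6 CPM, against 11.7 and 9.59 CPM in libraries 8 and 10 and 5.58 to 14.6 CPM in the untreated group. The part of the brain region sampled in the level of Gjb1 was not tested. With the mean of the myelin markers as a covariate, 0 of 17101 genes and 0 of 8 members passed in edgeR, with 868 genes and 1 member at an unadjusted p under 0.05, and no other tool was run with it. That covariate had no overlap between the groups. Gjc3 then gave -0.08 and Gjb1 -0.13.

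**Figure D2:**
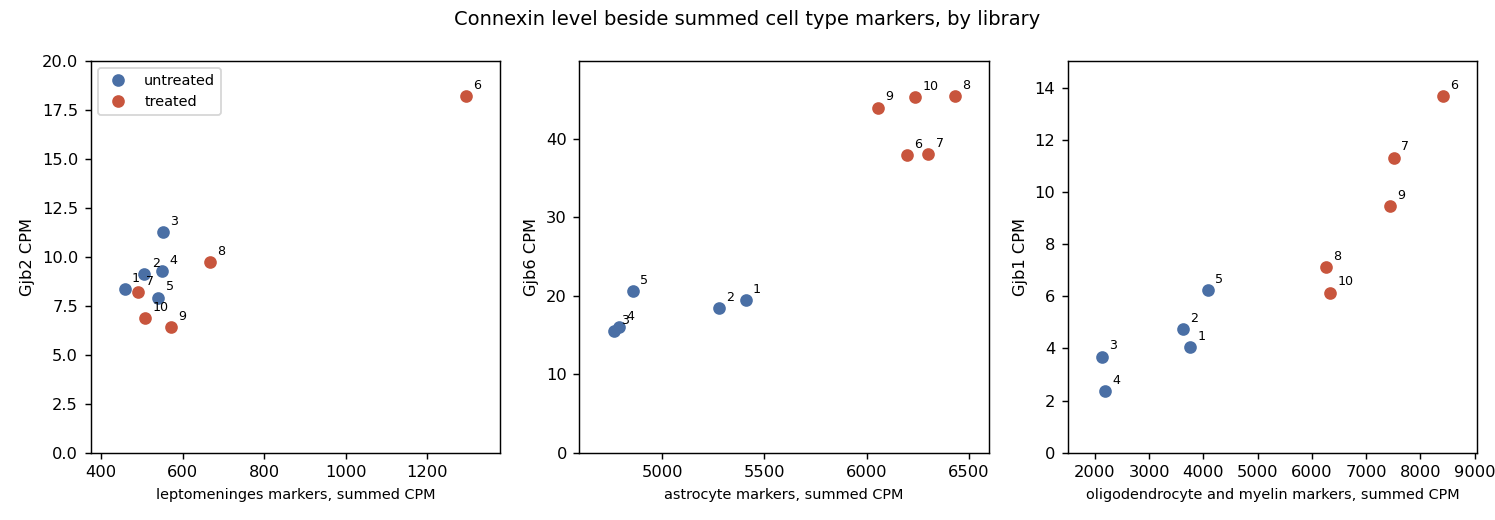
CPM of Gjb2, Gjb6 and Gjb1 (vertical) against the summed CPM of the leptomeninges, astrocyte and oligodendrocyte marker lists (horizontal), 1 point per library, untreated in blue and treated in red. Treated library 6 is far out in both Gjb2 and the leptomeninges sum, and Gjb1 is high where the myelin sum is high.

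The neuronal connexins had lower means in the treated group and neither passed. Gjd2 (ENSMUSG00000068615, chromosome 2, 114009601 to 114013619) encodes Cx36 of electrical synapses. It measured 15.4, 18.7, 19.2, 19.5 and 19.6 CPM untreated and 19.7, 14.8, 15.9, 15.9 and 15.8 CPM treated. Untreated library 1 sat at the treated level and treated library 6 at the untreated level. Gjd2 differed by -0.17 on the log2 scale (SE 0.09, adjusted p = 0.281 in edgeR), and by -0.25 (adjusted p = 0.0772, edgeR) without treated library 6. Of its exons 75 bases lie opposite those of A530058N18Rik, and without the strand setting of the counting, reads of both cannot be told apart there.

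Gjc1 (ENSMUSG00000034520, chromosome 11, 102799579 to 102819700) was the least abundant member per length. It stood at 8.90, 8.92, 9.23, 8.83 and 6.19 CPM untreated and at 5.91, 7.49, 7.70, 6.88 and 5.99 CPM treated. Untreated library 5 lay within the treated range and the other 4 untreated libraries above it. This was a log2 difference of -0.31 (SE 0.13, adjusted p = 0.128 in edgeR), and without untreated library 5 of -0.41 with an adjusted p = 0.0284. That leave-out was the only 1 of 23 alternatives in which Gjc1 passed. Mural cell markers, the other known source of Gjc1, summed to 240 to 287 CPM untreated and 244 to 305 CPM treated, and none of 8 passed in edgeR, DESeq2 or limma-trend or had an unadjusted p under 0.05 in edgeR.

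Neuron markers did not all share one direction, with 3 of 13 higher (Eno2, Camk2a and Gad1) and 2 lower (Stmn2 and Tubb3). Over all genes tested 6.61% were higher and 4.65% lower. The log2 fold change was above 0 in 10 of the markers and below 0 in 3, with a median of 0.20. The Gjd2 ratio to Snap25, a gene of synaptic vesicle fusion, differed by -0.37 (95% interval -0.72 to -0.01, exact permutation p = 0.0397, adjusted p = 0.0794), and by -0.45 with an adjusted p = 0.0370 (exact permutation test) without treated library 6. In the other 11 of 12 alternatives this ratio did not pass. The log2 ratio of Gjd2 to Gjc1 differed by 0.13 (95% interval -0.35 to 0.61, exact permutation p = 0.540).

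Between the oligodendrocyte and neuron connexins 1 pair was tested, Gjb1 against Gjd2. The CPM ratio of the pair spanned 0.123 to 0.320 over untreated and 0.390 to 0.768 over treated libraries, a log2 difference of 1.35 (95% interval 0.61 to 2.06, adjusted p = 0.0278, exact permutation test). Without untreated library 4 the adjusted p was 0.0556 at a difference of 1.14. Gja1 against Gjd2 differed by 0.34 (95% interval 0.08 to 0.55, adjusted p = 0.0741, exact permutation test). Without untreated library 1 it differed by 0.43 (adjusted p = 0.0222, exact permutation test), and in the other 11 of 12 alternatives it did not pass. Between the 2 glial classes, Gjb6 against Gjc3 differed by 0.45 (95% interval 0.03 to 0.80, adjusted p = 0.0833, exact permutation test), and by 0.57 (adjusted p = 0.0222, exact permutation test) without treated library 6. For Gjb6 against Gjc3 too, the other 11 of 12 alternatives did not pass.

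**Figure D3:**
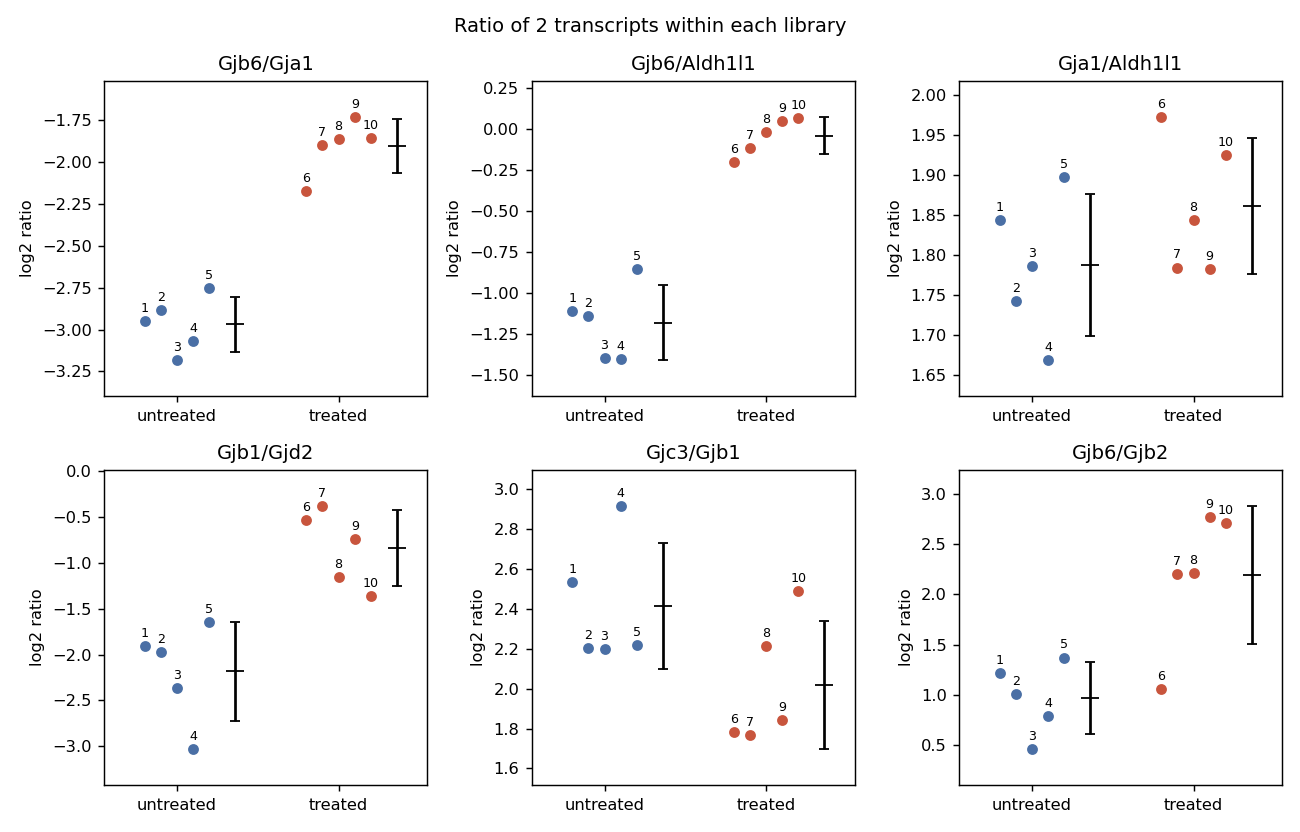
Log2 ratio of 2 transcripts within each library (points, numbered by library) with the group mean and SD as black bars. Gjb6/Gja1, Gjb6/Aldh1l1 and Gjb1/Gjd2 are higher in every treated library than in any untreated one, while Gja1/Aldh1l1, Gjc3/Gjb1 and Gjb6/Gjb2 overlap between groups.

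Panx1 was the member that fell. Panx1 (ENSMUSG00000031934, chromosome 9, 15002128 to 15045478) encodes the channel through which many cells release ATP. It measured 42.2, 38.5, 45.1, 39.8 and 42.6 CPM untreated and 33.5, 35.1, 33.4, 34.01 and 32.3 CPM treated. Every treated library lay below every untreated one, and the treated values spanned less than the untreated ones. The decrease was 1.24-fold (log2 -0.31, SE 0.05, adjusted p = 0.00400, edgeR). With the astrocyte covariate it was -0.26 (adjusted p = 0.492, edgeR). Against the untreated libraries of the shared prefix the log2 fold change was -0.30 (adjusted p = 0.0898, edgeR).

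Panx2, a pannexin of neurons and glia, went the opposite way. Its mean was 152 ± 15.3 CPM in untreated and 182 ± 14.7 CPM in treated brains (SD, n = 5 each), with overlapping groups. The log2 fold change of 0.26 (SE 0.07, adjusted p = 0.0392, edgeR) missed the threshold in 13 of 23 alternative analyses. Among them were the leave-outs of untreated libraries 1, 3 and 4 and of treated libraries 6, 7, 9 and 10. Against the untreated libraries of the shared prefix Panx2 gave 0.28 (adjusted p = 0.200, edgeR). Of 11 purinergic partners of pannexin channels none rose and 1 fell, against 6.61% of all genes tested that rose and 4.65% that fell. This was P2ry6, a nucleotide receptor of microglia, whose mean was 7.32 ± 3.36 CPM in untreated and 3.66 ± 0.452 CPM in treated brains (SD, n = 5 each). Its adjusted p was 0.0175 in edgeR's test. The adenosine receptor gene Adora1 had a log2 fold change of 0.12, Adora2a -0.44 and the microglial receptor P2ry12 0.35, none past the threshold.

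Few other genes of the family passed the filter. Of 15 other connexin and pannexin genes 5 passed the filter, of which 4 are described here, and of these Panx2 rose. Gja4 and Gja5, connexins of arterial endothelium, had log2 fold changes of 0.16 (SE 0.12) and 0.11 (SE 0.26), and Gjd3 0.23 (SE 0.44), none past the threshold. The remaining 10 genes stayed at or below 0.776 CPM in every library. Of 12 genes for connexin partners and turnover only Src, a kinase known to phosphorylate Cx43, passed, rising 1.12-fold (adjusted p = 0.0381, edgeR), against the 11.3% of all genes tested that passed. The ubiquitin ligase gene Nedd4, the actin-binding Dbn1 and the microtubule-tip gene Mapre1 had log2 fold changes of -0.08, -0.06 and -0.10, none past the threshold.

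Of the other cell types, 2 of 7 endothelium markers rose (Flt1 and Ly6c1), 1 of 6 microglia markers rose (Tmem119) and none of either list fell, against 6.61% of all genes tested that rose and 4.65% that fell. The microglia list had a median log2 fold change of -0.19, with 4 of 6 markers below 0, and at an unadjusted p under 0.05 in edgeR 3 were lower and 2 higher. Of 6 choroid plexus markers none passed in edgeR, DESeq2 or limma-trend or had an unadjusted p under 0.05 in edgeR. The sums were 146 to 165 CPM untreated and 156 to 190 CPM treated for endothelium, 224 to 296 and 230 to 247 CPM for microglia, and 107 to 854 and 345 to 926 CPM for choroid plexus. The microglial gene Csf1r had a log2 fold change of -0.22 and the endothelial Cldn5 0.02, neither past the threshold.

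**Figure D4:**
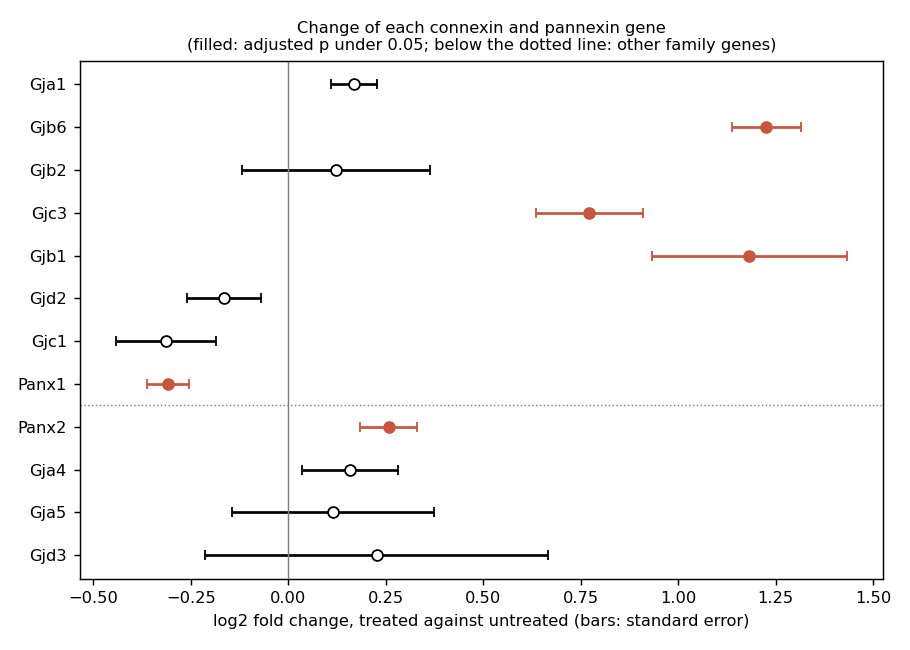
Log2 fold change of treated against untreated libraries (horizontal, bars are standard errors) for the 8 members above the dotted line and 4 other family genes that passed the filter below it. Filled red points passed an adjusted p of 0.05, with Gjb6 and Gjb1 furthest to the right and Panx1 the filled point left of 0.

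Levels were compared between genes only per kilobase of exon, using all annotated exon bases of a gene, so long untranslated exons such as those in Gja1 (10257 bases in all) lower the value. On that scale the means over all 10 libraries ran from Panx2 (46.4 CPM per kb) through Gja1 (14.5), Gjb6 (11.2), Gjc3 (6.83), Panx1 (6.24), Gjd2 (6.06), Gjb1 (4.03), Gjb2 (3.96), Gja4 (3.25), Gjc1 (1.52) and Gjd3 (0.786) to Gja5 (0.250). Only the steps from Panx2 to Gja1 and from Gja4 to Gjc1 had no overlap between the libraries of neighbouring genes. Gja1 was above Gjb6 in 5 of 5 untreated and in 1 of 5 treated libraries. In the treated group Gjb6 reached 15.8 ± 1.43 and Gja1 15.4 ± 1.24 CPM per kb (SD, n = 5 each), against 6.73 ± 0.811 and 13.7 ± 0.610 in the untreated group.

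**Figure D5:**
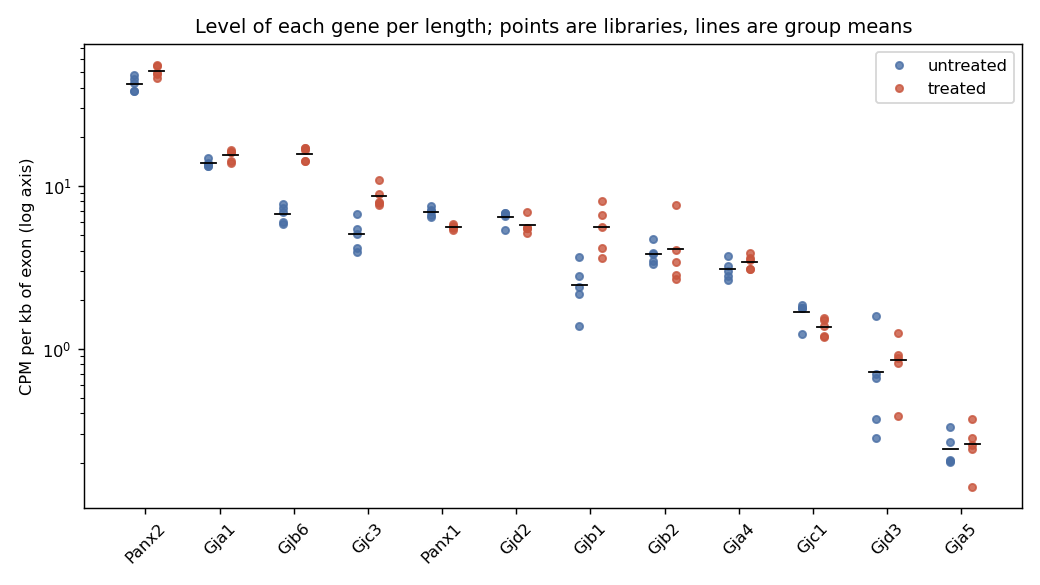
Level of 12 family genes that passed the filter, in CPM per kilobase of exon on a log axis, ordered by their mean. Points are libraries (untreated blue, treated red) and black lines are group means, and the Gjb6 points of treated libraries stand at the height of those of Gja1.

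The genes whose levels varied most like those of a member within the groups were found by Pearson's r of log2 CPM over 10 libraries after subtracting each group's mean, among 11247 genes. These values describe 10 libraries that share depth and tissue sampling. They are the highest among many genes over few libraries and carry no p-value. For Gjc3 the nearest genes were Gltp, a glycolipid transfer protein (r = 0.979), Cant1 (0.963) and Csrp1 (0.962). Gltp and Csrp1 also rose, with log2 fold changes of 0.70 and 0.77, while Cant1 (0.11) did not pass. For Gjd2 they were the potassium channel gene Kcnd3 (0.980), Igfbp5 (0.934) and Baiap2l1 (0.922). The nearest to Gjb6 were Aaas (0.964), Osbp (0.947) and Nptx1 (0.908), and those nearest to Gja1 were Trip4 (0.955), Sorcs3 (0.954) and Msh6 (0.915). Among the genes named here for Gjd2, Gjb6 and Gja1, only Nptx1 passed, with a log2 fold change of 0.53.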

How the data were processed

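RNA of 10 whole brains was extracted with a Qiagen column kit and made into libraries with a directional NEBNext kit, per the labels' protocols. The table deposited by the authors holds estimated counts (expected counts) per Ensembl gene. Its name says normalized, but 86.8% to 87.6% of the values above 0 are whole and library totals differ, so the values were rounded and analysed as counts. The submitters' processing notes name Partek and mm10. For aligner, counting program, annotation and strand setting: not given in the sources used here. Names, exons and coordinates came from GENCODE M21 (GRCm38), with 55230 of 55471 identifiers found, and promoters from RefSeq (GRCm38.p6).

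Genes with 10 or more counts in at least 5 libraries (17101) were scaled by TMM and tested two-sided with edgeR 4.0.16 (R 4.3.3), without covariates and with Benjamini-Hochberg adjustment over all genes kept. SE is the log2 fold change divided by the root of F. Ratios of 14 gene pairs used log2 CPM with a prior count of 1, an exact two-sided permutation test over all assignments of 5 and 5 libraries (smallest p 0.00794), adjustment over the 14 pairs, and intervals made by inverting that test. The tests were tested on simulated data. The labels number the mice 1 to 10, taken here as separate animals. No replicate numbers are shared between groups.

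Alternatives were DESeq2 1.42.0, limma-trend (limma 3.58.1), other scalings, filters and covariates, and libraries left out. The settings with library 5 with 6 left out and with the Ddx3y covariate, and the midbrain list, were added after seeing the data. Members and lists were chosen with earlier results of these data known. Named genes are the members, every family gene kept, the 3 most abundant kept genes of each other list, the ratio partners and the 3 genes most alike in pattern to Gjb6, Gja1, Gjc3 and Gjd2. Some named genes and 2 of the ratios are not reported here, some genes are given as part of their list's range only, and list genes past the threshold were named after their values were seen. Figures were drawn with matplotlib 3.10.9.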

Additional observations from a re-analysis of the deposited data

Results flagged for a closer look

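In 5 of 54 groups tested, 1 library stood apart from the other 4 by a gap wider than chance gives in about 1 group in 20. Gjb2 was 18.2 CPM in treated library 6 and 6.41 to 9.73 CPM in the other treated libraries. Gjd2 was 15.4 CPM in untreated library 1, with the others between 18.7 and 19.6 CPM, and 19.7 CPM in treated library 6, with the others between 14.8 and 15.9 CPM. Gjc1 was 6.19 CPM in untreated library 5 and 8.83 to 9.23 CPM in the others of its group. The log2 ratio of Gja1 to Gjd2 was 3.29 in untreated library 1 and 2.79 to 2.88 in the others. No cause was tested for any of these.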

How the results depend on the processing

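Over 23 alternatives Gjb6 passed in 22, and Gjc3, Gjb1 and Panx1 in 20 each. All 4 calls were kept under the other scalings, filters and tools and with any 1 library left out. The all-gene counts of 1131 higher and 795 lower were 80 and 25 without the libraries of the other prefix (members 1 and 0, with 4 and 1 at an unadjusted p under 0.05), 17 and 26 with the astrocyte covariate (members 1 and 0) and 0 and 0 with the myelin covariate (members 0 and 0). Library totals alone gave 783 higher and 1451 lower, so which direction held more genes depended on the scaling. With 1 library left out, higher genes ranged from 645 to 1360, lower genes from 435 to 983, members lower from 1 to 2 and ratios passed from 3 to 7. Log2 differences that turned sign with the astrocyte covariate were Gja1 -0.045, Gjb2 -0.99 and Gja5 -0.53. With the myelin covariate they were Gjc3 -0.082, Gjb1 -0.13, Gjc1 0.045 and Gja5 -0.28. With the leptomeninges covariate they were Gjb2 -0.18 and Gja5 -0.028. Without untreated library 5 and treated library 6 they were Gjb2 -0.29 and Gja5 -0.13. With 1 library left out, Gjb2 ranged from -0.24 to 0.24, Gja5 from -0.069 to 0.27 and Gjb2/Aldh1l1 from -0.33 to 0.034. The cause was not tested. No paired analysis was possible because the groups share no replicate numbers. Low counts limit Gja5 and Gjd3, whose SEs were 0.26 and 0.44.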
